A study of Mauremys reevesii with 3 samples.

Results

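The miR-30 family was described in small RNA libraries from Chinese pond turtle embryos (Mauremys reevesii, whose sex is set by the incubation temperature of the egg). Eggs were kept at 26, 29 or 32 °C until Greenbaum stage 16, at which temperature starts to act on the gonad, and the adrenal-kidney-gonad complex was dissected. RNA of 3 biological samples was pooled into 1 library per temperature, so there are 3 libraries, no replicates and no p-values. The family was taken as every row of the deposited table named miR-30a to miR-30e, whatever the species prefix, copy number or arm. This gave 33 of the 1743 rows, of which 13 were 5p and 20 were 3p strands. A prefix such as hsa (human), mmu (mouse) or gga (chicken) gives the species from which the reference entry was taken, and all reads came from turtle.

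MicroRNAs are short RNAs that pair with messenger RNAs through a seed near their 5′ end and reduce their translation and stability. The miR-30 family is abundant in vertebrate kidney. In Xenopus it is needed for development of the pronephros, the embryonic kidney, and in mouse it has been linked to podocytes, the filtering cells of the glomerulus. In mammals its hairpins lie in pairs, miR-30a with miR-30c-2, miR-30b with miR-30d and miR-30e with miR-30c-1. The complex was sequenced without being separated into its organs, so none of the counts can be assigned to the kidney alone, and in such bulk RNA fewer cells of a type and less RNA per cell cannot be told apart.

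All 13 of the 5p rows carried the same seed (bases 2 to 8), and their first 11 bases were identical, so the letters of the family differ only in the part after the seed. The sequences below show the most counted miR-30c strands beside rows that are close to them, and pairs of close rows of miR-30a and miR-30e, which differ by a single base over their shared length or only in length, with the seed in capitals and positions counted from 1 at the 5′ end. They are the sequences of the deposited table.
hsa-miR-30c-5p: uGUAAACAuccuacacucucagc
fru-miR-30c: uGUAAACAuccuacacucucgg
hsa-miR-30a-5p: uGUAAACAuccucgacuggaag
mmu-miR-30e-5p: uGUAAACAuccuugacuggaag
hsa-miR-30c-2-3p: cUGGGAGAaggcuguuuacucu
gga-miR-30c-2-3p: uGGGAGAAggcuguuuacucu
ssa-miR-30e-3p: cUGGGAGAaggcuguuuacuuu
hsa-miR-30a-3p: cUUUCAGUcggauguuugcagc
ola-miR-30e: cUUUCAGUcggauguuugc
The substitution is A21G from hsa-miR-30c-5p to fru-miR-30c, C13U from hsa-miR-30a-5p to mmu-miR-30e-5p and C21U from hsa-miR-30c-2-3p to ssa-miR-30e-3p, all outside the seed. The 3p strands had no common seed: miR-30c-2 has UGGGAGA, and miR-30a has UUUCAGU.

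Many of the rows stood for 1 molecule. Rows of 1 arm without a mismatch over at least 18 bases, at an offset of up to 3 bases, were counted once by their most counted row, which left 18 distinct sequences, 6 of the 5p and 12 of the 3p arm. The miR-30c-5p rows named after human, anole (aca) and zebrafish (dre) differ only in length. The anole row, aca-miR-30c-5p, had 50125, 41789 and 51378 counts at 26, 29 and 32 °C, and the counts of the 3 rows ranged from 50114 to 50205, from 41763 to 41863 and from 51357 to 51485 in these libraries. The rows hsa-miR-30c-2-3p and gga-miR-30c-2-3p start 1 base apart, which shifts the seed, yet had 7608 and 7531 counts at 26 °C. The rows therefore do not tell which 5′ end, and so which seed, the 3p reads had. Names and sequences did not always match: ola-miR-30e and tgu-miR-30b-3p lie within hsa-miR-30a-3p without a mismatch, and were counted with it.

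The libraries held 9348882, 9624436 and 9613861 counts in the order 26, 29 and 32 °C. Levels are given in CPM, counts scaled to 1000000 per library, and a single count was worth 0.107, 0.104 and 0.104 CPM. These totals count a read again for each row it was assigned to. MicroRNAs taken as markers of several tissues were found in each library. Which tissue the reads of each list came from was not tested. The summed level of 6 sequence groups (rows joined by at least 16 shared bases, counted once) of kidney tubule miRNAs (miR-192, miR-194, miR-215 and miR-204) was 4867, 4039 and 3345 CPM at 26, 29 and 32 °C. Most of this sum was a single row, ola-miR-192-5p, with 38237, 31766 and 25229 counts, while mmu-miR-194-5p had 7229, 7058 and 6899. The counts of hsa-miR-215-5p are not in the sum, because it shared a group with a more counted row. Over its 3 groups the gonad miRNA miR-202 summed to 813, 1032 and 330 CPM, and over 2 groups the liver miRNA miR-122 summed to 608, 147 and 175 CPM. The blood list (miR-451, miR-223 and miR-142) summed to 62.3, 117 and 56.2 CPM over 5 groups and the muscle list (miR-1, miR-133 and miR-206) to 153, 118 and 110 CPM over 6. Of these lists, 5 of 6 kidney and 5 of 6 muscle groups, and all groups of the other lists, had counts in every library. All intervals below are 95% exact intervals that cover counting error only, and reads amplified without molecular identifiers are not separate molecules.

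miR-30c made up most of the family counts at every temperature, miR-30b came next, and miR-30a, miR-30d and miR-30e had few counts. The main strand of miR-30c (hsa-miR-30c-5p) was counted 50205, 41863 and 51485 times at 26, 29 and 32 °C, which was 5370, 4350 and 5355 CPM. It was lowest in the 29 °C library. In the others it was nearly the same on the table total but not with TMM factors, a scaling given below. It ranked 34th, 39th and 32nd among all rows, and its sequence group ranked 11th, 12th and 10th of 973. The main strand of miR-30b (mml-miR-30b-5p, same counts as mmu-miR-30b-5p) had 12094, 11449 and 8870 counts, or 1294, 1190 and 923 CPM, and was lowest at 32 °C. The variant row fru-miR-30c had 750, 710 and 885 counts, which was 1.49%, 1.70% and 1.72% of the hsa-miR-30c-5p count. Its 95% interval relative to hsa-miR-30c-5p excluded equality between the 32 and 26 °C libraries, with a log2 odds ratio of 0.20 (0.06 to 0.35). The same held for 29 over 26 °C, at 0.18 (0.03 to 0.33), but not for 32 over 29 °C, at 0.02 (-0.13 to 0.17). How many reads both rows took was not tested.

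The remaining 5p strands had few counts. The miR-30d strand hsa-miR-30d-5p had 49, 45 and 41 counts at 26, 29 and 32 °C. The miR-30e strand mmu-miR-30e-5p had 7, 3 and 1 counts, and hsa-miR-30a-5p had 4, 2 and 2. As background, miR-30a, miR-30d and miR-30e are abundant in mammalian kidney. Here these letters together held under 1% of the 5p counts in each library, with the largest, miR-30d, at 0.0776%, 0.0832% and 0.0669% at 26, 29 and 32 °C. The intervals of these miR-30d shares overlapped, and the highest reached 0.111%. The rows are reference entries of other species, and the mismatches allowed are not given. Whether turtle strands of these letters were missed in matching was not tested.

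The 3p strands were fewer than the 5p strands, and miR-30c-2 held nearly all of them. The strand hsa-miR-30c-2-3p had 7608, 6066 and 5521 counts at 26, 29 and 32 °C, or 814, 630 and 574 CPM. On the table total its level was lower in each warmer library, but the difference between 32 and 29 °C turned positive with other scalings, as given below. The opposite strand of miR-30b (bta-miR-30b-3p, same counts as hsa-miR-30b-3p) had 213, 188 and 148 counts. The 3p strand of the other miR-30c hairpin, mmu-miR-30c-1-3p, had 0, 2 and 0 counts, at or under the floor of 3 counts in each library (0.321, 0.312 and 0.312 CPM at 26, 29 and 32 °C). Reads of the miR-30c 5p strand may come from either hairpin.

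For miR-30a, and by row name only for miR-30e, the rows of the 3p strand had more counts than those of the 5p strand. The strand hsa-miR-30a-3p had 56, 40 and 28 counts at 26, 29 and 32 °C. Its shorter version ola-miR-30e, which lacks the last 3 bases, had 35, 30 and 20. The row ssa-miR-30e-3p had 56, 49 and 54 counts, but it is 1 base away from hsa-miR-30c-2-3p and its reads need not come from a miR-30e hairpin. The other 8 distinct 3p sequences had at most 4 counts in any library. In all, 8 of the 18 distinct sequences had at least 10 counts in a library and enter the ratios below, and each of the 8 had at least 28 counts in every library.

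**Figure D1:**
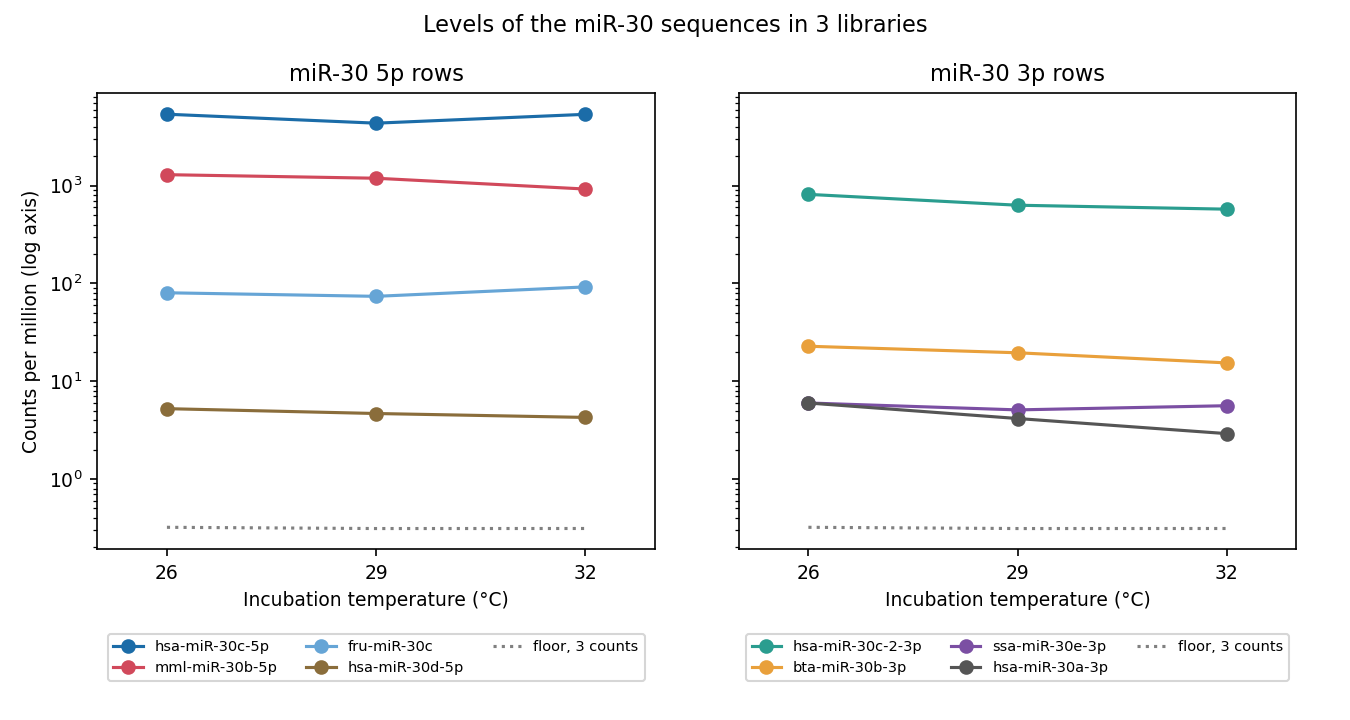
Levels in CPM (log axis) of the 8 miR-30 sequences with at least 10 counts in a library, against incubation temperature in °C, 5p strands on the left and 3p strands on the right; each point is 1 library, and the dotted line is the floor of 3 counts. hsa-miR-30c-5p lies highest at 4350 to 5370 CPM, and hsa-miR-30a-3p reaches the lowest level at 2.91 CPM in the 32 °C library.

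The comparison of 32 with 26 °C sets a temperature that gives mostly females against one that gives mostly males. Between these libraries miR-30c-5p was level and miR-30b and most 3p strands were lower at 32 °C on the table total. hsa-miR-30c-5p had 51485 counts at 32 °C against 50205 at 26 °C and differed by -0.00 (-0.02 to 0.01) in log2 CPM. mml-miR-30b-5p had 8870 against 12094 counts (log2 ratio -0.49, interval -0.53 to -0.45). hsa-miR-30c-2-3p had 5521 against 7608 counts (log2 ratio -0.50, interval -0.55 to -0.45), and bta-miR-30b-3p had 148 against 213 (log2 ratio -0.57, interval -0.88 to -0.26). The variant row fru-miR-30c was higher at 32 °C (log2 ratio 0.20, interval 0.06 to 0.34). The intervals of hsa-miR-30d-5p at -0.30 (-0.93 to 0.33) and ssa-miR-30e-3p at -0.09 (-0.66 to 0.47) included equality.

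A sequence was called when it differed by 2-fold or more with an interval that left out equality. Of the 8 sequences tested 1 was called lower and 0 higher at 32 °C, where 13.3% of all 814 rows tested were called lower and 4.42% higher (18.9% and 6.47% of 371 sequence groups). These shares and the medians over all rows take named miRNAs and predicted small RNAs together. Of the 1743 rows 1013 were named, and shares over named rows alone were not computed. The called sequence was hsa-miR-30a-3p, with 28 against 56 counts (log2 ratio -1.04, interval -1.75 to -0.36). It lay just inside the 2-fold line, and its shorter version tgu-miR-30b-3p lay just outside at -0.89 with 20 against 36 counts. Trimmed-mean (TMM) factors align libraries on the row ratios left after the extremes are trimmed, rather than on the total. They were computed from the full set of rows, repeated ones included. With them hsa-miR-30a-3p stood at -0.83 (-1.54 to -0.15) and 0 sequences were called. The median of the 8 log2 ratios was -0.39, beside -0.13 over all rows and -0.23 over sequence groups. Of the 8, 7 were below 0, beside 493 of 814 rows and 236 of 371 sequence groups. Neither background has the unit of the 8. Sequence groups join rows more widely, and mml-miR-30b-5p falls in the group of hsa-miR-30c-5p. TMM factors raised every log2 ratio of this pair by 0.21, and the median of all rows to 0.09. Under them 5 of the 8 were below 0, hsa-miR-30c-5p stood at 0.21 (0.19 to 0.23) and mml-miR-30b-5p at -0.27 (-0.31 to -0.23).

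Between 29 and 26 °C all 8 sequences had lower levels in the 29 °C library, and the intervals of 3 of them left out equality. They had log2 ratios between -0.53 and -0.12 and a median of -0.23, beside a median of 0.00 and 401 of 812 rows below 0. Over sequence groups the median was -0.03, with 195 of 371 below 0. hsa-miR-30c-5p had 41863 counts at 29 °C against 50205 at 26 °C (log2 ratio -0.30, interval -0.32 to -0.29). Its partner strand hsa-miR-30c-2-3p had 6066 against 7608 counts (log2 ratio -0.37, interval -0.42 to -0.32), so both strands of miR-30c were lower at 29 °C. mml-miR-30b-5p had 11449 against 12094 counts, a smaller difference of -0.12 (-0.16 to -0.08). The intervals of the other 5 sequences included equality. None of the 8 was called 2-fold apart, where 6.28% of all 812 rows were called lower and 4.56% higher (9.16% and 5.93% of sequence groups). The signs of all 8 held under the 5 scalings run, which moved the ratios of this pair by -0.015 to 0.017.

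Between 32 and 29 °C the 2 abundant 5p strands went opposite ways. hsa-miR-30c-5p had 51485 counts at 32 °C against 41863 at 29 °C (log2 ratio 0.30, interval 0.28 to 0.32), and fru-miR-30c followed it with 885 against 710 counts (log2 ratio 0.32, interval 0.18 to 0.46). mml-miR-30b-5p had 8870 against 11449 counts (log2 ratio -0.37, interval -0.41 to -0.33). These 3 signs were the same under TMM factors, at 0.50, 0.52 and -0.17 in the order given. For hsa-miR-30c-2-3p the sign depended on the scaling, with -0.13 (-0.19 to -0.08) on the table total and 0.06 (0.01 to 0.12) with TMM factors. For bta-miR-30b-3p the log2 ratio was -0.34 (-0.66 to -0.03) on the total, and with TMM factors -0.15 (-0.47 to 0.17). None of the 8 was called 2-fold apart, where 9.67% of all 807 rows were called lower and 2.73% higher (13.5% and 4.85% of sequence groups). TMM factors moved the median of all rows for this pair from -0.18 to 0.02. Of the rows called, 22.0% were higher at 32 °C on the total, against 35.2% under TMM and 34.2% under median-of-ratios scaling. Each library enters 2 of the 3 comparisons, so these are not independent.

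**Figure D2:**
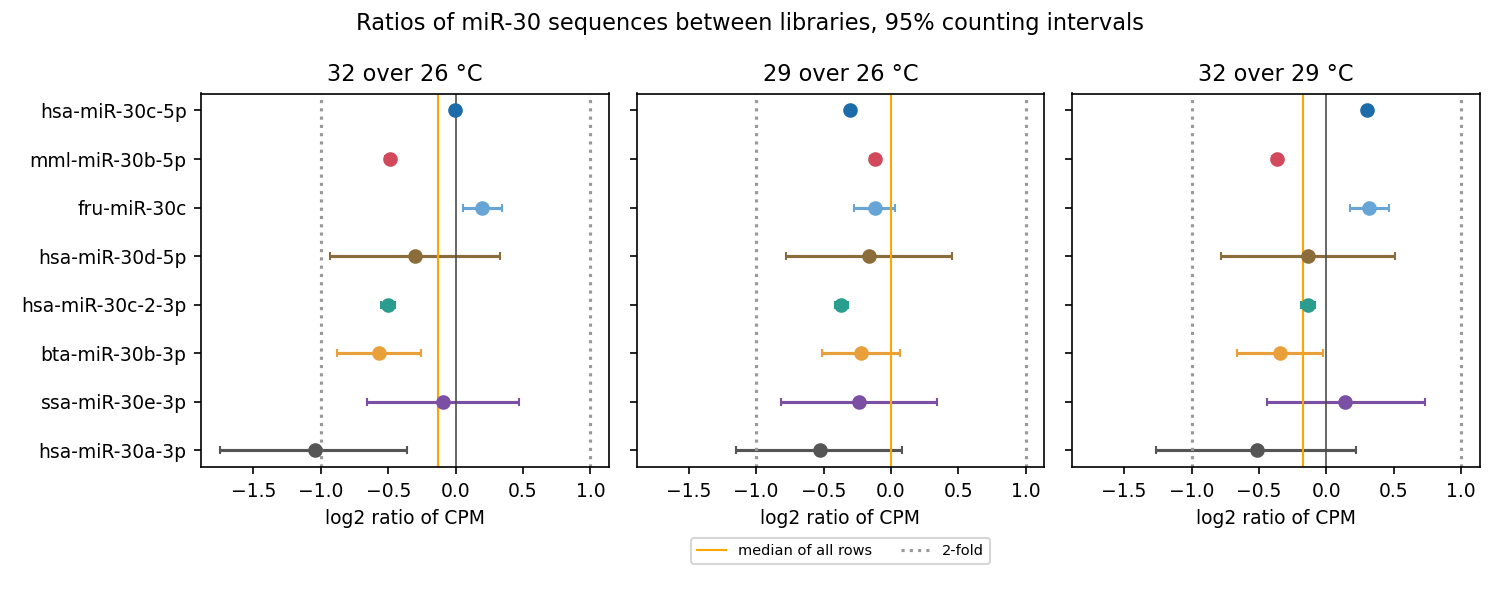
Log2 ratios of CPM of the 8 miR-30 sequences for 32 over 26, 29 over 26 and 32 over 29 °C; points are ratios of 2 libraries, bars are 95% exact counting intervals, dotted lines mark 2-fold and the orange line the median of all rows tested. hsa-miR-30c-5p sits at -0.00, -0.30 and 0.30, mml-miR-30b-5p at -0.49, -0.12 and -0.37, and hsa-miR-30a-3p alone reaches the 2-fold line, at -1.04 for 32 over 26 °C on the table total.

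Ratios within the family need no scaling between libraries. Among the summed 5p counts miR-30b held 19.2% at 26 °C (18.9% to 19.5%), 21.2% at 29 °C (20.8% to 21.5%) and 14.5% at 32 °C (14.2% to 14.8%). miR-30c held 80.7%, 78.7% and 85.5%. The miR-30b share was thus lowest at 32 °C, and the intervals of the 3 libraries did not overlap. Relative to hsa-miR-30c-5p, mml-miR-30b-5p had a log2 odds ratio of -0.48 (-0.53 to -0.44) for 32 over 26 °C, 0.18 (0.14 to 0.22) for 29 over 26 °C and -0.67 (-0.71 to -0.62) for 32 over 29 °C. Both strands have the same seed and differ at 3 of 21 compared bases. Whether some reads were counted in both rows was not tested, and the intervals do not cover it.

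The strands of miR-30c also differed among libraries, and those of miR-30b did not differ beyond counting error. There were 9.33 counts of hsa-miR-30c-5p per count of hsa-miR-30c-2-3p at 32 °C (9.07 to 9.59), against 6.60 at 26 °C (6.44 to 6.76). At 29 °C there were 6.90 (6.72 to 7.09). The log2 odds ratio of the strands was 0.50 (0.45 to 0.55) for 32 over 26 °C, 0.06 (0.01 to 0.12) for 29 over 26 °C and 0.43 (0.38 to 0.49) for 32 over 29 °C. It was under 2-fold in each pair. For miR-30b the 5p to 3p ratio was 56.8, 60.9 and 59.9 at 26, 29 and 32 °C. Its log2 odds ratio for 32 over 26 °C was 0.08 (-0.23 to 0.39), an interval whose upper end lies below the miR-30c estimate of 0.50 for that pair, while the difference between the letters was not tested. The other letters had fewer than 30 counts on a strand over the libraries. Because miR-30c 5p reads may come from more than 1 hairpin, a difference in this ratio need not be a change of strand within a hairpin.

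hsa-miR-30c-2-3p and mml-miR-30b-5p had nearly the same log2 ratio for 32 over 26 °C, but not for the other pairs of libraries. The log2 odds ratio of hsa-miR-30c-2-3p to mml-miR-30b-5p was -0.02 (-0.08 to 0.05) for 32 over 26 °C. It was -0.25 (-0.31 to -0.19) for 29 over 26 °C and 0.23 (0.17 to 0.30) for 32 over 29 °C. These rows were chosen after their values were seen, so their closeness for 32 over 26 °C follows from the choice.

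**Figure D3:**
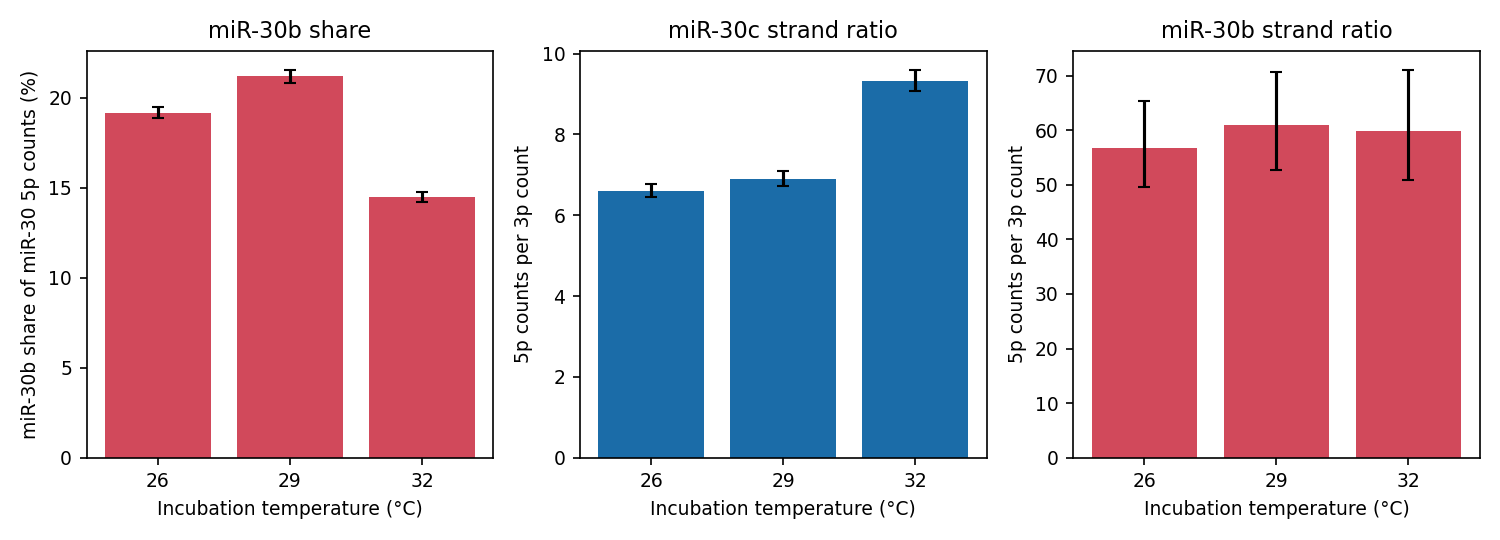
Left, percent of summed miR-30 5p counts from miR-30b; middle and right, counts of the 5p strand per count of the 3p strand for miR-30c and miR-30b, each against incubation temperature in °C; bars are single libraries and error bars 95% exact counting intervals. The miR-30b share is lowest at 32 °C (14.5%), the miR-30c strand ratio is highest there (9.33), and the miR-30b strand ratios of 56.8, 60.9 and 59.9 have overlapping intervals.

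Summed over distinct sequences, the 5p strands had 63109, 54072 and 61284 counts at 26, 29 and 32 °C and the 3p strands 7950, 6353 and 5752. The 5p sum was lowest at 29 °C and the 3p sum had its highest count at 26 °C. The log2 ratio of the 5p sum was -0.08 (-0.10 to -0.07) for 32 over 26 °C on the table total and 0.13 with TMM factors, so no direction is drawn for it. It was -0.26 (-0.28 to -0.25) for 29 over 26 °C. The 3p sum was lower at 32 than at 26 °C under each of the 5 scalings, with log2 ratios of -0.51 (-0.56 to -0.46) on the total and -0.29 with TMM factors. For 32 over 29 °C it changed sign, from -0.14 (-0.19 to -0.09) on the total to 0.06 with TMM factors.

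**Figure D4:**
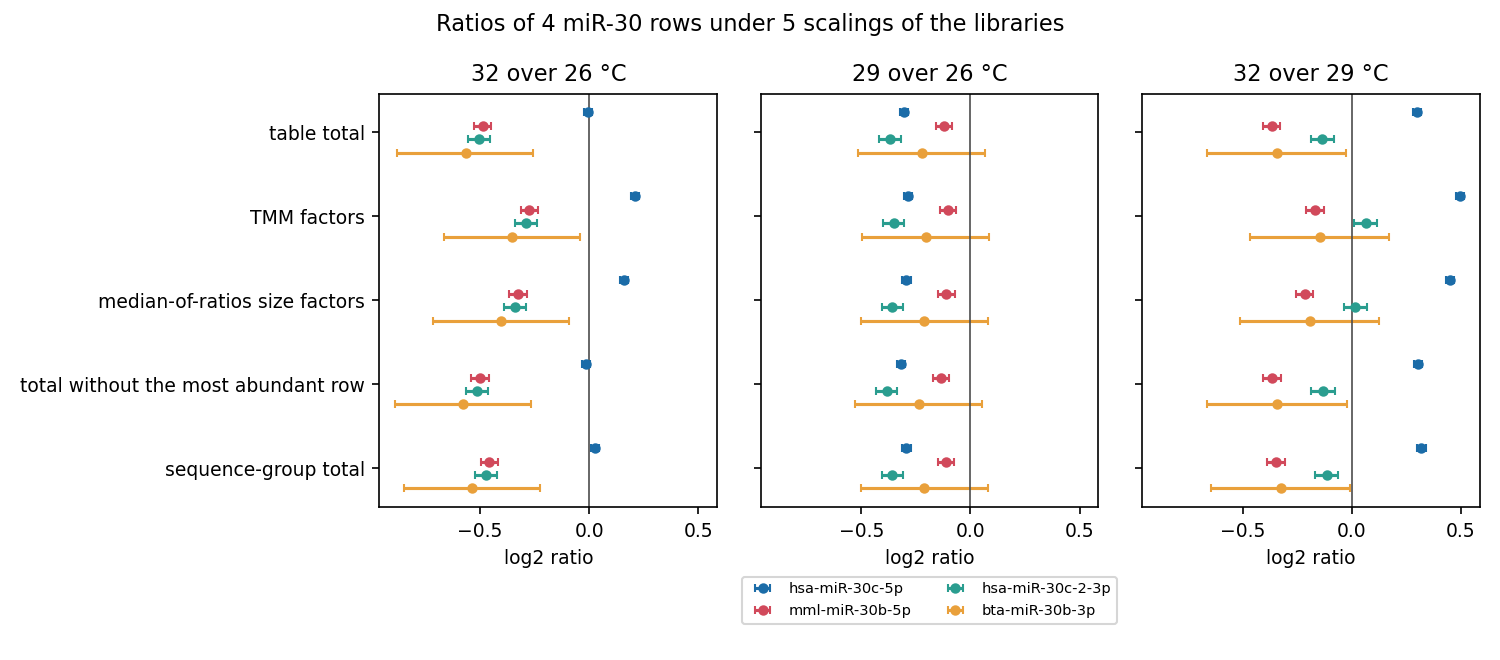
Log2 ratios of 4 miR-30 rows for the 3 pairs of libraries under 5 ways of scaling the libraries, with 95% exact counting intervals. For 32 over 26 °C hsa-miR-30c-5p moves between -0.02 and 0.21. A scaling moves all ratios of a pair by the same amount, so the order of the rows within a pair cannot change.

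Among other kidney miRNAs, the most counted miR-192 row was lower at 32 than at 26 °C under each scaling. The sign of the most counted miR-194 row depended on the scaling. The list of miR-192, miR-194, miR-215, miR-204 and miR-211 rows held 17 rows in 9 distinct sequences. Of these, 6 distinct sequences had enough counts, 0 were called 2-fold apart in either direction for 32 over 26 °C, where 13.3% of all rows were called lower and 4.42% higher. All 6 log2 ratios were below 0, with a median of -0.49, beside 493 of 814 rows and a median of -0.13 over all rows. Over sequence groups 236 of 371 were below 0, with a median of -0.23. The intervals of 2 of the 6 included equality. With near-identical rows of the list kept apart, 11 rows had enough counts and their median was -0.23. With TMM factors 4 of 6 were below 0, with a median of -0.28, beside a median of 0.09 over all rows. ola-miR-192-5p, the most counted row of this list, had 25229 counts at 32 °C against 38237 at 26 °C (log2 ratio -0.64, interval -0.66 to -0.62), and stood at -0.43 with TMM factors. The row hsa-miR-192-5p, counted with it as 1 sequence, had only 1473 against 1684 counts and a smaller difference. Its log2 ratio was -0.23 (-0.34 to -0.13) on the table total, the only scaling given for it. TMM factors raised every log2 ratio of this pair by 0.21. mmu-miR-194-5p, encoded beside miR-192, had 6899 against 7229 (log2 ratio -0.11, interval -0.16 to -0.06), and stood at 0.11 with TMM factors. The row hsa-miR-215-5p had 508 against 628 (log2 ratio -0.35, interval -0.52 to -0.18). With TMM factors it stood at -0.13 (-0.30 to 0.04), an interval that included equality. For 29 over 26 °C 4 of 6 were below 0 with a median of -0.10, beside 401 of 812 rows and a median of 0.00. Over sequence groups 195 of 371 were below 0, with a median of -0.03. In this pair 0 of the 6 were called, where 6.28% of all rows were called lower and 4.56% higher. For 32 over 29 °C 1 of 6 was called lower and 0 higher, where 9.67% of all rows (13.5% of sequence groups) were called lower and 2.73% (4.85%) higher, so the count is near the background. The called row was xtr-miR-215, with 11 counts at 32 °C against 25 at 29 °C (log2 ratio -1.18, interval -2.35 to -0.11). It was not called with TMM factors at -0.99 (-2.16 to 0.09) or with median-of-ratios size factors at -1.03 (-2.20 to 0.04). miR-204 (mmu-miR-204-5p) had 0, 0 and 1 counts at 26, 29 and 32 °C, and the list found no row of miR-211. On the table total the summed CPM of the kidney tubule, gonad, blood and muscle lists given above was lowest at 32 °C and that of the liver list at 29 °C, while with TMM factors the blood sum is lowest at 26 °C and the muscle sum at 29 °C. On that total mml-miR-30b-5p and the 3p strands of miR-30c and miR-30b were also lowest at 32 °C (hsa-miR-30c-2-3p was lowest at 29 °C under TMM scaling). The part of tissue content of the libraries in the miR-30 values was not tested.

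By distance between the log2 ratios of 29 over 26 and 32 over 26 °C, among 57 named sequence groups with at least 1000 counts in every library, the rows most like hsa-miR-30c-5p were ggo-miR-148b, oan-miR-460-5p and ggo-miR-148a. Their distances were 0.15, 0.18 and 0.20, with log2 ratios of -0.20 and -0.10 for ggo-miR-148b at 29 and 32 °C over 26 °C. Most like hsa-miR-30c-2-3p were gga-miR-34b-5p at 0.06, ola-miR-192-5p at 0.15 and hsa-miR-363-5p at 0.25. gga-miR-34b-5p had 45365, 37077 and 31837 counts at 26, 29 and 32 °C. With 3 libraries such likeness rests on 2 ratios per row and describes these libraries only.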

How the data were processed

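Small RNA was sequenced from 3 libraries, 1 per incubation temperature, each of pooled RNA from 3 biological samples, per the labels' protocols. Per the file headers, the authors deposited raw read counts per row and TPM. In all rows this TPM was the count over its column total within 0.01%, without a term for length. FastQC and Bowtie are named in the submitters' processing notes. The Bowtie version, the genome build, the mismatches allowed and the treatment of reads matching several rows are not given in the sources used here.

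Rows were matched to miR-30a to miR-30e by name. Rows without an arm in their name were given one from the sequence. Sequence groups joined rows sharing at least 16 bases on either strand. Ratios of CPM carry 95% exact conditional (Clopper-Pearson) intervals, and strand ratios carry Fisher's conditional odds ratio. Ratios needed a count of 10 or more in 1 library of the pair, strand ratios at least 30 counts per strand over the libraries. A count of 3 was the floor. With 1 library per temperature no test across libraries exists. The members and lists were chosen with earlier results of these data known. Every miR-30 row could be named, with full values for the most counted row of each letter and arm. Of other kidney miRNAs the most counted row of each was named, and of rows alike in pattern the 3 nearest. Simulated counts with known changes were used to test the ratio calculation. Tools were Python 3.11.15, numpy 2.4.6, scipy 1.17.1, pandas 2.3.3, matplotlib 3.10.9, R 4.3.3, edgeR 4.0.16 (TMM) and DESeq2 1.42.0 (size factors).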

Additional observations from a re-analysis of the deposited data

How the results depend on the processing

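No paired analysis was possible because the labels give a single library per temperature, and counting error is the only error measured. The count of sequences called lower for 32 over 26 °C was 1, and became 0 with TMM factors, with median-of-ratios size factors and where an interval had to lie wholly past 2-fold. It became 2 with every row counted. It stayed 1 with no count minimum, at least 50 counts, 1.5-fold and 1 row per letter and arm, and all other counts were 0 under every setting run. For 32 over 26 °C the 5p sum moved from -0.08 to 0.132 with TMM and 0.0799 with size factors, both opposite in sign, to -0.0524 on the sequence-group total and to -0.0616 with all rows summed. The 3p sum moved from -0.51 to -0.29 and -0.34 with TMM and size factors. hsa-miR-30c-5p moved from -0.00 to 0.21, 0.16 and, on the sequence-group total, 0.0263. For 29 over 26 °C the 5p sum was -0.25 with TMM factors. For 32 over 29 °C the 5p sum moved from 0.18 to 0.38, 0.33 and 0.20 under those 3 scalings and to 0.22 with all rows summed, and the 3p sum from -0.14 to 0.0557 and 0.0095 with TMM and size factors, opposite in sign. hsa-miR-30c-5p moved from 0.30 to 0.50, 0.45 and 0.32, and hsa-miR-30c-2-3p from -0.13 to 0.0632 and 0.0171. With all rows summed the miR-30b share was 13.8%, 15.4% and 10.3% and the miR-30c share 86.1%, 84.6% and 89.7% at 26, 29 and 32 °C, since repeated rows of miR-30c then count again. The shifts by scaling are those of the library factors themselves, which move every ratio of a pair by the same amount, up or down. The total without the most abundant row left each ratio inside its interval. The deposited TPM is the count over its column total, so its ratios repeat the main ones and are no separate check. Summing the rows of each arm left the strand odds ratios inside their intervals, but it mostly adds rows of nearly the same counts.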

Other observations

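Rows of other miR-30 letters stood outside the family as defined here. bta-miR-30f, which carries the family's 5p seed and is 1 base away from hsa-miR-30c-5p, had 187, 148 and 162 counts at 26, 29 and 32 °C. pma-miR-30g, with the same seed and also 1 base away, had 28, 35 and 20 counts. chi-miR-30f-3p, 1 base away from hsa-miR-30c-2-3p, had 44, 31 and 24 counts.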
